A study of Mus musculus with 4 samples.

Results

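The *Obox* genes are a family of oocyte homeobox genes of the mouse, and the 6 members named *Obox1*, *Obox2*, *Obox3*, *Obox5*, *Obox6* and *Obox7* were followed through 4 RNA-seq libraries. They were chosen by gene symbol, after their Ensembl identifiers had been joined to symbols, and all 6 were found among the 21957 genes of the expression table. One more gene with an *Obox* symbol, *Obox8*, had a row and is given for comparison only. The 4 abundant members held almost all of the family's signal and were highest in the library from oocytes cultured with 20 µM tubastatin A (TubA). How many other genes were highest there was not counted. None of the 4 was past 2-fold in any comparison of libraries, beside 0.235% to 23.9% of expressed genes, depending on comparison and direction.

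The oocytes came from B6D2F1 females aged 6 to 8 weeks that had been primed with gonadotropin, and they were freed of cumulus cells with hyaluronidase. GV denotes oocytes with an intact germinal vesicle at 0 h of culture, before meiosis resumes. MII denotes oocytes cultured for 12 h in M16 medium without TubA and kept only if they had put out a polar body. TubA-10 and TubA-20 denote oocytes cultured for 12 h with 10 or 20 µM TubA, a hydroxamate made to inhibit the deacetylase HDAC6. The sample titles give these doses, while the treatment field of the same samples gives 20 µM for TubA-10 and 11 µM for TubA-20. TubA was dissolved in DMSO, and whether the GV and MII oocytes received DMSO is not given in the sources used here. Since MII oocytes were selected by their polar body and no such selection is stated for the TubA oocytes, treatment and meiotic stage cannot be told apart. Each library was made from a pool of 100 oocytes by selection with oligo(dT), which favours transcripts with a long poly(A) tail, and there was 1 library for each condition. No difference could therefore be set against a spread between replicates, and no test was possible.

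A homeobox is the stretch of a gene that encodes a homeodomain, a fold of helices that binds DNA in many developmental transcription factors. The OBOX proteins carry a homeodomain of the paired-like type, and the genes lie in a cluster found in rodents. Maternal *Obox* transcripts are laid down while the oocyte grows and are carried into the egg, whereas *Obox3* is known mainly from the embryo after genome activation. OBOX proteins are known for their redundant part in switching on the embryonic genome. During meiotic maturation transcription is silent, so that the level of a maternal transcript depends on its stability and, in a library selected with oligo(dT), on its poly(A) tail.

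The cluster lay on chromosome 7 of GRCm38. In the GENCODE annotation *Obox8*, at chr7:14331436-14333557 on the minus strand, and *Obox6*, at chr7:15833241-15839678 on the minus strand, closed its ends, 1508 kb apart. Between them were *Obox7* at chr7:14659496-14665996, *Obox2* at chr7:15388721-15398545, *Obox1* at chr7:15388948-15556866 and *Obox5* at chr7:15750131-15759800, all on the plus strand. *Obox3* lay at chr7:15479825-15639902 on the minus strand and overlapped the annotated span of *Obox1* in the opposite direction. The annotation names 55 *Obox* loci, of which 53 are on chromosome 7 and 7 are protein coding, and the other 48 loci, mostly pseudogenes of *Obox3* and *Obox4*, are not used here. Of 31 other genes annotated inside the cluster 3 had a row. *Vmn1r90*, a vomeronasal receptor gene, was listed at 0 in every library, and the sulfotransferase genes *Sult2a8* and *Sult2a7* reached at most 0.185 and 1.92 FPKM.

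The homeoboxes are shown because they give the relation of the members to each other at the part that defines the family. Each runs across the junction of 2 exons of the principal GENCODE transcript and is printed 5′ to 3′ on the coding strand, with capitals where a base differs from *Obox1*. The exons are 3 and 4 for *Obox1*, *Obox5* and *Obox7*, 4 and 5 for *Obox3*, and 2 and 3 for *Obox6*, and the spans are chr7:15555567-15556192, chr7:15757941-15758580, chr7:14664442-14665309, chr7:15626284-15626933 and chr7:15833909-15834517 in that order.
Obox1: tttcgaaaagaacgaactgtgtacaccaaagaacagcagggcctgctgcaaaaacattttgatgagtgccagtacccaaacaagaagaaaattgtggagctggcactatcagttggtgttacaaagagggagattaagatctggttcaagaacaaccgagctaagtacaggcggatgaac
Obox5: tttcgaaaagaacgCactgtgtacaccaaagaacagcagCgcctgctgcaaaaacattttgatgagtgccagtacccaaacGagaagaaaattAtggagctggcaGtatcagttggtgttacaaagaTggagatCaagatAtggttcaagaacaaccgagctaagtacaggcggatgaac
Obox7: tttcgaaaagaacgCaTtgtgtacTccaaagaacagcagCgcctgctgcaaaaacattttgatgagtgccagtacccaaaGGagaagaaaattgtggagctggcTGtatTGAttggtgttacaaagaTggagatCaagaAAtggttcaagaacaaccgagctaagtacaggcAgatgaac
Obox3: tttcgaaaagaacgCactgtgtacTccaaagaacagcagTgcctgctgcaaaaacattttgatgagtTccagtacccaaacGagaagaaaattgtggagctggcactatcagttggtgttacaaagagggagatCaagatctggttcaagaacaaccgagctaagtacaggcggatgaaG
Obox6: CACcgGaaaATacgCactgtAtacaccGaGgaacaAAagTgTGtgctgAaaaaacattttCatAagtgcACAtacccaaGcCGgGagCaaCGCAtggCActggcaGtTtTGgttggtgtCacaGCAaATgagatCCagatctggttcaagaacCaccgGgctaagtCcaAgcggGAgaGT
Over these 180 bases *Obox3* differed from *Obox1* at 7 positions, *Obox5* at 8, *Obox7* at 16 and *Obox6* at 52. *Obox5* and *Obox7*, which are compared further on, differed from each other at 10. The homeobox of *Obox8* differed from that of *Obox1* at 79.

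*Obox2* stood apart at this stretch. The stretch of its transcript that aligned to the *Obox1* homeobox, chr7:15397250-15397873 in exons 3 and 4, had 176 identical bases, 3 substitutions and 1 base fewer, and the lost base fell at base 69 of the *Obox1* homeobox. It is shown up to the last base of its annotated stop codon, with the substitutions in capitals.
Obox2: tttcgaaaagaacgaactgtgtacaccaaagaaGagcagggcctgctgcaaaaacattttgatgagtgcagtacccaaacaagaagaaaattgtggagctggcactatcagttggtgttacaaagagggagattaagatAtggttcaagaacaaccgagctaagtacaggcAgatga
The base was missing in all 4 annotated *Obox2* transcripts. The coding sequence entered this stretch in the same frame as that of *Obox1*, at residue 94, left that frame at the lost base and ended after 151 residues, against 204 in *Obox1*. The signature of a homeodomain, tryptophan and phenylalanine followed by asparagine and arginine at fixed distances, was found once in the other members and not in the annotated reading frame of *Obox2*. This is the sequence of the reference strain, and the B6D2F1 oocytes were not examined for it.

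The members also differed in the length of their coding sequences. *Obox5* has 291 coding residues, *Obox7* 218, *Obox3* 335 and *Obox6* 347. Aligned over their whole coding sequences, *Obox1* and *Obox7* were 87.7% identical, *Obox3* and *Obox5* 81.7%, *Obox5* and *Obox7* 72.0% and *Obox1* and *Obox6* 45.9%. *Obox1* and *Obox2* were 73.0% identical over all alignment columns, because *Obox2* is shorter, although 449 of its 456 coding bases had an identical partner.

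Likeness of this degree bears on the values, because a read that fits more than 1 gene can be given to either. The reads were 100 bases long and came in pairs. The share of 100-base stretches of a gene's transcripts that also occur elsewhere was counted. This treats each read by itself, and the share of read pairs that fit more than 1 gene was not counted. For *Obox1* 42.3% and for *Obox2* 47.2% of the stretches were shared, in each case the same 754 stretches with the other gene. *Obox5* and *Obox7* shared 37 stretches with each other, 1.75% of those of *Obox5* and 2.34% of those of *Obox7*. *Obox3* shared 8.89% with *Obox* pseudogenes, and *Obox6* shared none. With 50-base stretches the shares were 57.4% for *Obox1*, 65.1% for *Obox2*, 18.1% for *Obox5* and 21.1% for *Obox7*. The separate values of *Obox1* and *Obox2* are therefore uncertain, while their sum, and *Obox5* and *Obox7* at the full read length, are less open to an exchange of reads. In addition 59 exon bases are annotated to both *Obox1* and *Obox2*.

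**Figure D1:**
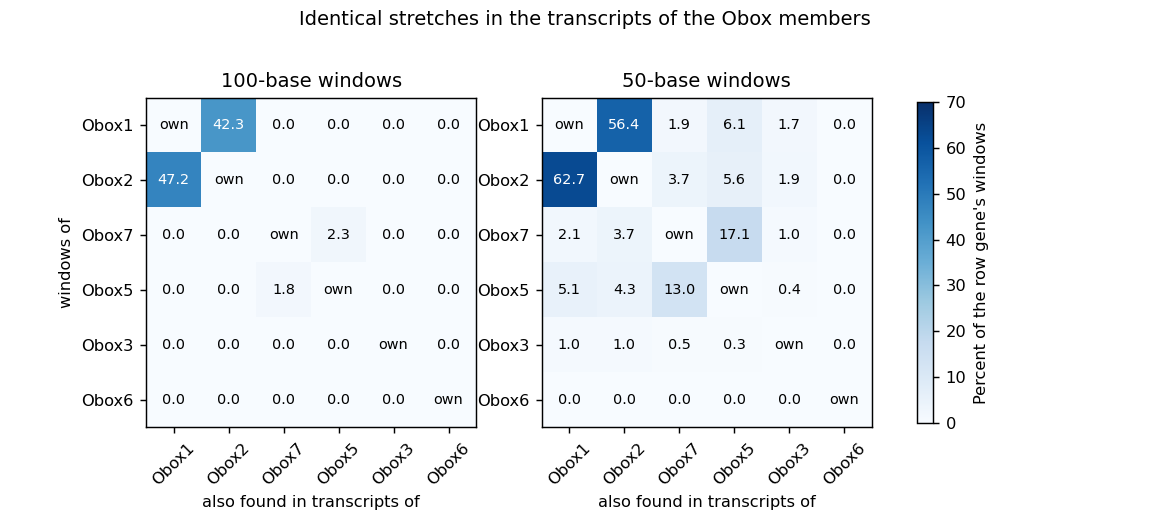
Share of each row gene's 100-base (left) or 50-base (right) transcript stretches, in percent, that also occur in a transcript of the column gene; the colour scale runs from 0 to 70%. *Obox1* and *Obox2* share 42.3% and 47.2% at 100 bases, and every other pair at most 2.34%.

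The 3′ ends are shown because maternal transcripts are read out here through their poly(A) tails. The last polyadenylation signal of each member is in capitals, within at most 30 bases at the end of the principal transcript.
Obox1, chr7:15556826-15556855 (+): atatgttcattaAATAAAaggagaaaatag
Obox2, chr7:15398505-15398534 (+): atatgttcattaAATAAAaggagaaaatag
Obox7, chr7:14665958-14665987 (+): atatgttcattaAATAAAaggagaaaatag
Obox5, chr7:15759760-15759789 (+): ataaatctgataAATAAAtactgtgagcca
Obox3, chr7:15625313-15625342 (-): atacatctgataAATAAAtactgtgagcca
Obox6, chr7:15833241-15833264 (-): atttactggagaATTAAAaaatgt
The windows of *Obox1*, *Obox2* and *Obox7* were identical, and that of *Obox5* was close to that of *Obox3* instead, while *Obox6* had the variant ATTAAA. The letters of a cytoplasmic polyadenylation element, by which stored transcripts are given a longer tail during maturation, were searched as TTTTAT or TTTTAAT on the transcript strand. In *Obox1*, *Obox2* and *Obox7* such letters began 27 bases before the signal. In *Obox5* the nearest began 487 bases before it and in *Obox3* 372 bases, so that neither had them in the last 100 bases, and *Obox6* had none. Of 10014 coding genes with a mean of at least 1 FPKM, 19.8% had such letters in their last 100 bases. A match of letters is a description of the sequence and no evidence of use.

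RefSeq gives a promoter window, from 250 bases before to 50 after the annotated start, for 5 members, *Obox6* not among them. The windows of *Obox1*, *Obox2*, *Obox5* and *Obox7* were alike over most of their length. The best local alignment of *Obox5* and *Obox7* was 97.1% identical over 273 columns. That of *Obox1* and *Obox5* was 95.8% identical over 285, and that of *Obox1* and *Obox2* 100% over 203. The window of *Obox3* aligned over a shorter part, from 67 columns with *Obox2* (88.1%) to 175 with *Obox5* (92.6%). All 5 windows held the run gtgagaattaaggatttgaatattg. It is found at chr7:15547159-15547183 for *Obox1*, which is 98 bases before its RefSeq start, and at chr7:15750260-15750284 for *Obox5*, 110 bases before its own. In *Obox2* the run began 1 base before the RefSeq start. The place downstream of the run at which the other windows hold the letters TATATAA thus lay past the end of its window. Whether *Obox2* has them there cannot be read from this window. All windows but that of *Obox2* held the letters TATATAA, which 3.46% of the 27025 promoter windows in the table hold on either strand. They are shown in capitals within 30 bases.
Obox1, chr7:15547227-15547256 (+): gtttgcagagaTATATAAgggcaggtcttc
Obox5, chr7:15750328-15750357 (+): gtttgcagagaTATATAAgggcaggtcttc
Obox7, chr7:14659692-14659721 (+): gtttgcagagaTATATAAgggcaggtcttc
Obox3, chr7:15639789-15639818 (-): gtttggagagaTATATAAgggcaggtcttc
These letters began 31 bases before the RefSeq start in *Obox5*, 30 in *Obox3*, 19 in *Obox1* and 5 in *Obox7*. *Obox3*, listed near 0 below, thus carried the same letters as *Obox1*, *Obox5* and *Obox7*. GENCODE places some transcript starts of *Obox1*, *Obox2*, *Obox5* and *Obox7* farther upstream, so that these windows are defined by the RefSeq starts alone. TAATCC was found in *Obox3* alone of the 5 windows, against 7.16% of all windows.

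Expression was given in FPKM units, the number of fragments relative to transcript length and to the mapped fragments of the library, so levels can be compared between genes. FPKM is a share of the library, so that less *Obox* transcript per oocyte, a shorter poly(A) tail and more of other transcripts cannot be told apart. The markers of the labelled cell type were present. All 11 oocyte markers were at 1 FPKM or more in every library, with a summed 11416 to 15825 FPKM, while 12 cumulus and granulosa markers summed to 11.0 to 17.6 FPKM with *Foxl2* at 0, and blood markers were at 0 except *Ptprc* at 0.00893 FPKM in TubA-10. The summed cumulus and granulosa markers were 17.6 FPKM for GV and 17.3 for TubA-20, against 14.2 for MII and 11.0 for TubA-10, and their part in the *Obox* values was not tested. The sums of GV and TubA-20 rested on different genes. *Inha* was at 7.50 FPKM in GV and at most 0.314 in the other libraries, whereas *Cyp19a1* was at 6.14 in GV and 10.3 in TubA-20. *Ptx3* and *Tnfaip6* were at 0 in GV and at 1.19 and 1.57 FPKM in TubA-20. Read counts are not used here. From the step between the lowest FPKM values the depth relative to GV was estimated at 0.896 for TubA-20, 1.63 for MII and 1.68 for TubA-10. The step held 218 of 813 low genes for TubA-20, 76 of 1114 for MII and 92 of 1120 for TubA-10. Changes are log2 ratios of FPKM + 1, past 2-fold means beyond 1 or −1 on that scale, and all genes with a mean of at least 1 FPKM over the 4 libraries, 10199 in number, are the background.

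*Obox2* was the most abundant member in every library. It was at 1440 FPKM in TubA-20, with 1197 in GV, 1123 in MII and 1047 in TubA-10. *Obox1*, the nearest copy of *Obox2*, was at 1197 FPKM in TubA-20, with 994.8 in GV, 914.9 in MII and 803.8 in TubA-10. Both genes were thus lowest in TubA-10 and highest in TubA-20, and among all 21957 genes *Obox2* ranked between 43 and 59 and *Obox1* between 55 and 88.

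*Obox5*, the member with the second 3′ end, had 523.5 FPKM in GV and 543.7 in TubA-10, and 693.8 in MII and 940.7 in TubA-20. *Obox7* was the lowest of the abundant members, at 117.7 FPKM in GV and 118.5 in TubA-10, and at 139.4 in MII and 183.9 in TubA-20. Unlike *Obox1* and *Obox2*, these genes were lowest in GV in the deposited values and higher in MII, and they too were highest in TubA-20. Their margin between GV and TubA-10 was small, and its direction depended on the scaling of the libraries, as given below. *Obox5* moved from rank 230 among all genes in GV to rank 174 with TubA-10, 106 in MII and 88 with TubA-20, and *Obox7* from 1070 to 999, 803 and 666. The order *Obox2*, *Obox1*, *Obox5*, *Obox7* held in each of the 4 libraries, and with 1 library per condition it cannot be said which neighbours in it differ beyond their spread.

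The embryonic *Obox3* was listed at 0.114 FPKM in GV and 0.177 in TubA-10, and at 0 in MII and TubA-20. *Obox6* was at 0.0730 FPKM in GV, 0.0439 in TubA-10, 0.0937 in MII and 0 in TubA-20, and *Obox8* in the same order at 0.0877, 0, 0.167 and 0.0985. Multiplied by the relative depth, and with the value of GV set to 1, *Obox6* became 2.10 in MII and 1.01 in TubA-10, *Obox8* 3.11 in MII and 1.01 in TubA-20, and *Obox3* 2.60 in TubA-10. For *Obox6* and *Obox8* these are close to whole multiples, as a few fragments would give. The low values from which the depth was estimated included *Obox6* in MII and TubA-10 and *Obox8* in TubA-20. Differences of these genes between libraries were not detectable at this depth, and a value of 0 does not show that the transcript is absent.

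**Figure D2:**
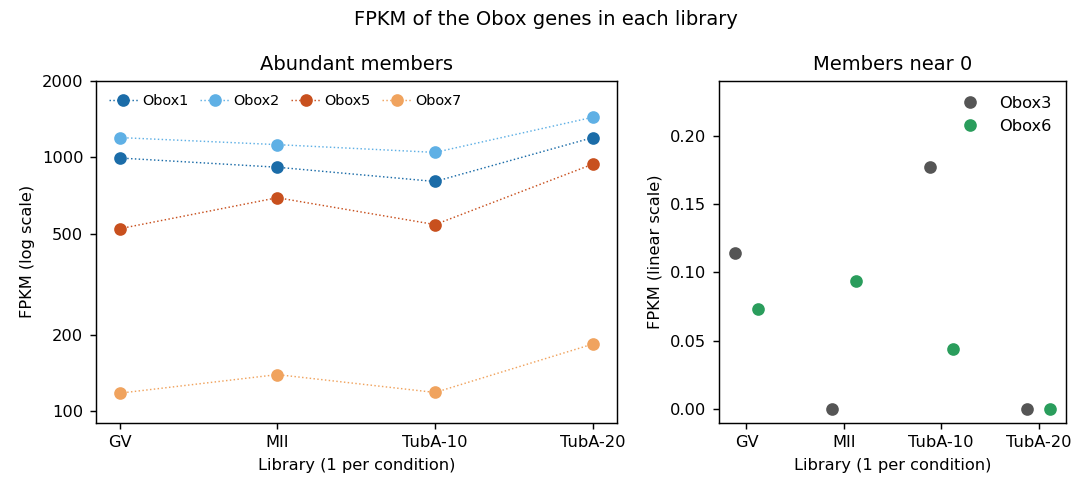
FPKM of the abundant members on a log scale (left) and of *Obox3* and *Obox6* on a linear scale (right), 1 point for each of the 4 libraries; dotted lines only join the points of a gene. In these deposited values all abundant members are highest in TubA-20, and *Obox5* and *Obox7* are lowest in GV whereas *Obox1* and *Obox2* are lowest in TubA-10. For *Obox2*, *Obox5* and *Obox7* the order of GV and TubA-10 depends on the scaling.

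Maturation without TubA was the first question, and the family divided into 2 pairs. From GV to MII *Obox5* was higher by 0.41 and *Obox7* by 0.24 on the log2 scale, whereas *Obox1* changed by −0.12 and *Obox2* by −0.09. The directions of *Obox1* and *Obox2* depended on how the libraries were scaled, and with equal FPKM sums or equal *Gapdh* both were above 0, at 0.01 and 0.04 or 0.11 and 0.14. *Obox5* and *Obox7* stayed above 0 under each of the 4 scalings, from 0.26 to 0.63 and from 0.10 to 0.47. *Obox3* and *Obox6*, at most 0.177 FPKM, cannot pass 2-fold on this scale and lie under the filter of the background, so that only the 4 abundant members can be read against it. None of these 4 was past 2-fold. Of the background genes 6.5% were past 2-fold higher and 17.2% past 2-fold lower, with a median change of 0.07. The median of the 6 members was −0.03, and that of the 4 abundant ones 0.07.

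Because a scaling multiplies every gene of a library alike, ratios between members within a library do not depend on it. The ratio of *Obox5* to *Obox1* was 0.526 in GV, and it was 0.676 with TubA-10, 0.758 in MII and 0.786 with TubA-20. That of *Obox7* to *Obox1* was 0.118, 0.147, 0.152 and 0.154 in this order. All 3 cultured libraries were above GV in both ratios. The ratio of *Obox2* to *Obox1* was 1.20, 1.30, 1.23 and 1.20 in the same order, and that of *Obox5* to *Obox7* was 4.45, 4.59, 4.98 and 5.12. *Obox7* has the same window at its last polyadenylation signal as *Obox1* and *Obox2*, and its ratio to *Obox1* was higher in MII than in GV, as was that of *Obox5*. A part of the 3′ ends in these ratios was not tested.

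In shares of the family's summed FPKM, *Obox5* held 18.5% in GV, 21.6% with TubA-10, 24.2% in MII and 25.0% with TubA-20. *Obox1* was at 35.1% in GV and between 31.8% and 32.0% in the other libraries. In the order just used, *Obox2* was at 42.3%, 41.7%, 39.1% and 38.3%, and *Obox7* at 4.15%, 4.72%, 4.85% and 4.89%. *Obox3* and *Obox6* together did not reach 0.01%.

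**Figure D3:**
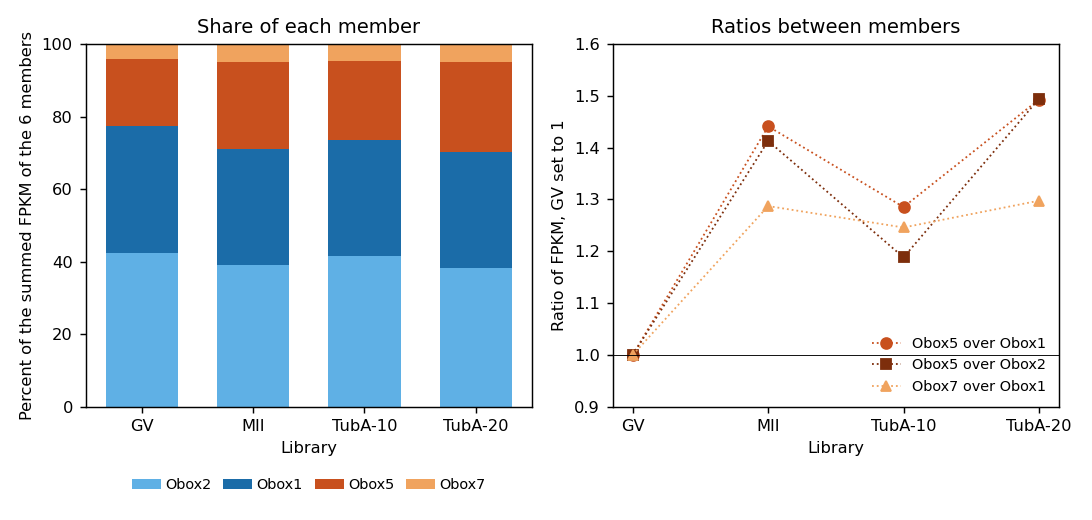
Left, percent of the summed FPKM of the 6 members held by each abundant member in each library (*Obox3* and *Obox6* are too low to be seen). Right, ratios of FPKM between members with GV set to 1, where *Obox5* over *Obox1* is 0.526 in GV before setting and 0.786 in TubA-20, and all plotted ratios lie above GV in each cultured library.

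With 10 µM TubA the question was whether the family followed the MII pattern. Against GV, TubA-10 changed *Obox5* by 0.05, *Obox7* by 0.01, *Obox2* by −0.19 and *Obox1* by −0.31. *Obox5*, *Obox7* and *Obox2* changed direction under 1 of the 4 scalings each, the first with the median change set to 0 (−0.11), the next likewise (−0.15) and *Obox2* with equal *Gapdh* (0.07), while *Obox1* stayed below 0 under all 4. None of the 4 was past 2-fold, against 1.53% of the background genes higher and 11.5% lower.

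Set against MII, all abundant members were lower in TubA-10. The log2 changes were −0.35 for *Obox5*, −0.23 for *Obox7*, −0.19 for *Obox1* and −0.10 for *Obox2*, and they stayed below 0 under each scaling. TubA-10 and MII were the most alike pair by this count, with 1.05% of the background past 2-fold higher and 0.235% past 2-fold lower and none of the 4 among them. Within that narrow spread 11.9% of the background genes had a lower change than *Obox5*, and 28.1% a lower change than *Obox1*.

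With 20 µM TubA all abundant members were higher than in GV. *Obox5* was 1.80-fold higher in FPKM and *Obox7* 1.56-fold, which is 0.84 and 0.64 on the log2 scale, and *Obox1* and *Obox2* were both higher by 0.27. All 4 stayed above 0 under each scaling, where *Obox5* ranged from 0.62 to 0.91 and *Obox1* from 0.04 to 0.34. The background spread widely here, with 16.2% of the genes past 2-fold higher and 23.9% lower, and none of the 4 was past 2-fold. Against this background 23.3% of genes had a higher change than *Obox5* and 45.5% a higher change than *Obox1*.

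Against MII the 4 abundant members differed by almost the same amount. *Obox5* was higher in TubA-20 by 0.44, *Obox7* by 0.40, *Obox1* by 0.39 and *Obox2* by 0.36 on the log2 scale, which is between 1.28-fold and 1.36-fold in FPKM. The median of the background was 0.00, with 0.608% of genes past 2-fold higher and 5.22% lower, and none of the 4 abundant members among them. Between 12.5% and 17.9% of background genes had a change higher than those of the 4 members. Under the scalings the lowest value was 0.20, for *Obox2* with equal *Gapdh*.

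Between the doses the differences were larger. From TubA-10 to TubA-20 *Obox5* was higher by 0.79, *Obox7* by 0.63, *Obox1* by 0.57 and *Obox2* by 0.46, in a background with a median of 0.03 in which 1.27% of genes were past 2-fold higher and 11.8% lower, and again none of the 4 was past 2-fold. For *Obox5*, 4.74% of background genes had a higher change, and for *Obox2* 20.0%. The scalings left *Obox5* between 0.59 and 0.72 and *Obox2* between 0.26 and 0.39. Comparisons that share a library are not independent of each other, and these 3 comparisons with TubA-20 all share it. By the step of low values, the depth of TubA-20 was 0.896 of GV and below those of MII and TubA-10, and its part in the result was not tested.

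**Figure D4:**
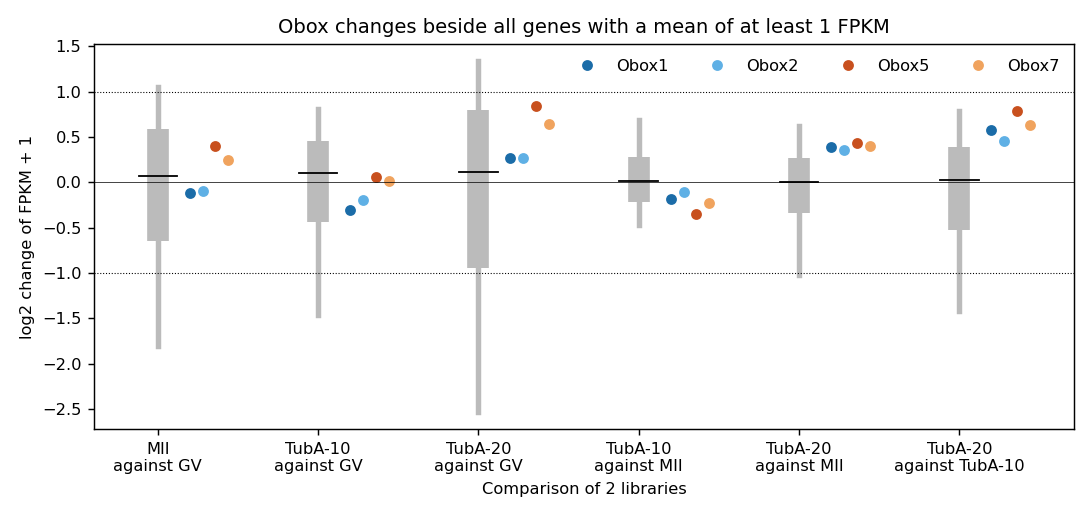
Log2 change of FPKM + 1 of the abundant members (coloured points) beside the 10199 genes with a mean of at least 1 FPKM in 6 comparisons of 2 libraries; thick grey bars run from the lower to the upper quartile, thin bars cover the central 90% of genes, black ticks are medians, and dotted lines mark 2-fold. None of these points is past 2-fold, and in TubA-20 against TubA-10 *Obox5* lies at the upper end of the thin bar.

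**Figure D5:**
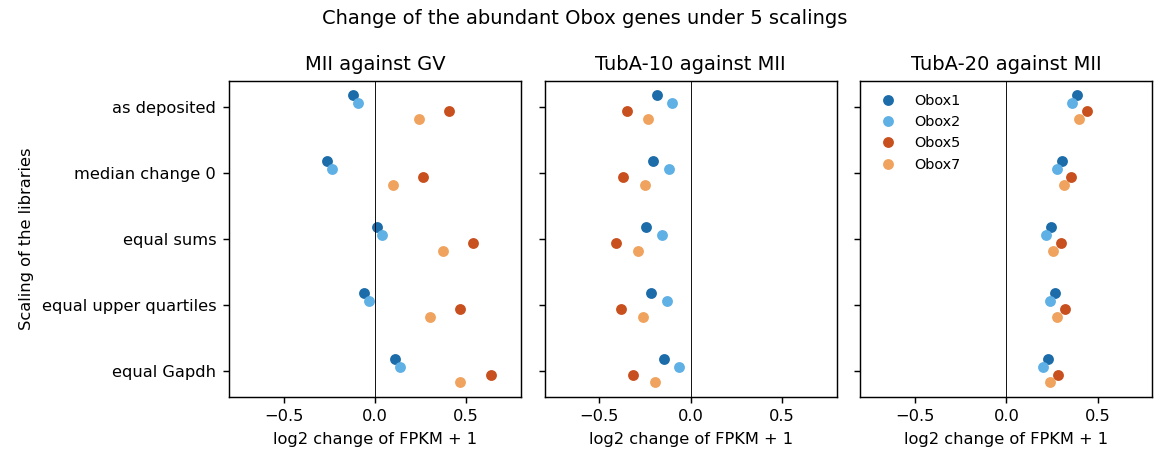
Log2 change of FPKM + 1 of the abundant members in 3 comparisons, as deposited and with the libraries rescaled in 4 ways. From GV to MII the points of *Obox1* and *Obox2* fall on both sides of 0, whereas against MII all points lie below 0 in TubA-10 and above 0 in TubA-20.

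The summed FPKM of the members does not depend on how reads were divided between *Obox1* and *Obox2* except through their lengths. It was 2834 in GV, 2513 with TubA-10, 2871 in MII and 3762 with TubA-20, or 0.455%, 0.425%, 0.505% and 0.600% of all FPKM. The log2 change of the sum was 0.02 from GV to MII and 0.41 from GV to TubA-20. With MII as the reference, TubA-10 stood at −0.19 and TubA-20 at 0.39. In the deposited values the sum was thus 1.31-fold higher in TubA-20 than in MII and nearly the same in GV and MII. This contrast depended on the scaling, since with equal *Gapdh* the change of the sum was 0.25 from GV to MII and 0.23 from MII to TubA-20.

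Among background genes outside the family, those most like each member over the 3 changes against GV were named by the largest absolute difference of the 3 values. For *Obox5* they were *Piwil1*, a PIWI gene of the piRNA pathway, at 0.02, *Zdhhc18*, a palmitoyltransferase gene, at 0.03, and the kinase gene *Mknk2* at 0.04. *Obox7* was nearest to *Mgrn1*, a ubiquitin ligase gene, at 0.02, followed by *BC029722* and *Rrm2b*, a ribonucleotide reductase subunit gene. *Obox1* was nearest to *Pla1a*, a phospholipase gene, at 0.07, then to *Tmem39b* and the helicase gene *Ddx18*, and *Obox2* to *Ilk*, the integrin-linked kinase gene, at 0.03, then to *Ddx18* and *Pla1a*. Their own copies were less near than these genes, which were the nearest in a background of 10199. *Obox1* and *Obox2* lay 0.11 apart, with 14 genes nearer to *Obox1* and 29 nearer to *Obox2*. *Obox5* and *Obox7* lay 0.21 apart, with 212 genes nearer to *Obox5* and 254 nearer to *Obox7*. Few of the background genes thus lay nearer to a member than its copy did. With only 3 values per gene such likeness is a description.

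Other homeobox genes of the oocyte and early embryo gave the family its setting. Of 25 genes in the list 11 had a mean of at least 1 FPKM. The summed FPKM of all 25, from 678.9 in GV to 740.0 in TubA-20, was below the level of *Obox1* alone in each library. *Nobox*, a regulator of oocyte growth that is needed for follicle formation, was at 219 FPKM in GV, 189 with TubA-10, 194 in MII and 125 with TubA-20. *Lhx8*, a LIM homeobox gene of the early oocyte, was in this order at 96.5, 105, 65.4 and 35.6 FPKM, and *Sebox*, a maternal homeobox gene, at 62.0, 62.7, 32.5 and 29.6. These genes were lowest in TubA-20, where the *Obox* genes were highest. *Meis2*, a TALE homeobox gene, was at 158, 208, 250 and 318 FPKM, and the POU gene *Pou2f1* at 57.4, 74.1, 88.2 and 154, both in the order of *Obox5*. Between GV and TubA-20, *Pou2f1* and *Meis2* were past 2-fold higher (1.41 and 1.01) and *Lhx8* and *Sebox* past 2-fold lower (−1.41 and −1.04), which is 2 of 11 in each direction beside the 16.2% and 23.9% of the background, and the median of the 11 was −0.56 beside 0.12. Against MII none of the 11 was past 2-fold in TubA-20, where 0.608% and 5.22% of the background were.

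Genes tied to activation of the embryonic genome, in which OBOX proteins are known to act, were taken as a list of 21, of which 16 had a mean of at least 1 FPKM. Those past 2-fold higher in TubA-20 against GV included the subunit gene *Nfya* of the factor NF-Y (1.42), the corepressor gene *Trim28* (1.03) and the histone demethylase gene *Kdm1a* (1.19). *Dppa4*, which encodes a chromatin protein upstream of *Dux*, was past 2-fold lower (−1.93), as was *Nfyc* (−1.16), and the median of the 16 was 0.53. The list had 4 of its 16 genes past 2-fold higher and 2 past 2-fold lower, beside the 16.2% and 23.9% of the background. From GV to MII 2 were past 2-fold higher and 2 lower, beside 6.5% and 17.2%, and between MII and TubA-20 none was, beside 0.608% and 5.22%. *Duxf3*, the *Dux* gene itself, was at most 0.0884 FPKM. The *Crxos* gene, another homeobox gene of the early embryo, was at 0.239 FPKM in GV and at most 0.0250 in the other libraries, so that like *Obox3* and *Obox6* it was near 0 in these oocytes.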

How the data were processed

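RNA-seq was made from 4 libraries, 1 per condition, of GV, MII, TubA-10 and TubA-20 oocytes. The authors deposited 1 table of FPKM values. Per the submitters' processing notes and the methods, reads were aligned with STAR 2.5.0 and quantified with Cufflinks for a strand-specific library on mm10, with Cuffdiff 2.2.1 also named. FPKM is already divided by transcript length and mapped fragments, and Cufflinks was run at its defaults apart from strand. How many alignments of a read with several matches were passed to it is not given in the sources used here. The labels and the methods differ on the RNA extraction kit, and the paper writes both of pools of 100 oocytes and of single oocytes.

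Symbols were joined by Ensembl identifier (165 of 21959 entries had none), and entries sharing a symbol were added up. Changes are log2 of the ratio of FPKM + 1, a pseudocount that understates changes of low genes. Genes with a mean of at least 1 FPKM formed the background, and 2-fold was the threshold. Groups followed the sample titles. No p-value was computed, since there was 1 library per condition. Depth was estimated from ratios of FPKM between 0.001 and 0.15, where genes resting on single fragments form a step with a tolerance of 0.03 log2. These estimates cover counting only.

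Sequences came from GENCODE M21 transcripts and from RefSeq promoters, both on GRCm38. Coding sequences were compared in place of proteins. Alternatives were pseudocounts of 0.1 and 0.01, 4 scalings, a 1.5-fold threshold, other filters on low values, other sets of entries, another way of joining entries, another measure of likeness and 50-base windows. The scaling with the median change set to 0 used ratios of FPKM to GV over genes at 1 FPKM or more in every library. The median of the background was therefore not exactly 0 after it, at −0.0247 in TubA-10 against GV and −0.0693 in TubA-20 against GV. The members, the gene lists and the alternatives were chosen with earlier results of these data known. Named genes were the members, other *Obox* entries, genes inside the cluster, members of the 2 gene lists and 3 marker lists, and the 3 genes nearest in pattern to each abundant member. One gene of a list is not reported here by name. The scripts were tested on simulated data. Python 3.11.15, numpy 2.4.6, pandas 2.3.3 and matplotlib 3.10.9 were used.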

Additional observations from a re-analysis of the deposited data

Results flagged for a closer look

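The abundant members were picked out because the 2 doses lay on opposite sides of MII. The rule set no smallest size and was applied to the abundant members alone. The share of background genes that meet it was not counted. *Obox5* was below MII in TubA-10 and above it in TubA-20, and the log2 changes of the doses against MII differed by 0.79. The same held for *Obox7* with a difference of 0.63, for *Obox1* with 0.57 and for *Obox2* with 0.46. Both changes share the MII library, and the difference equals the change from TubA-10 to TubA-20. With 1 library per condition these differences were not tested, and the near-identical *Obox1* and *Obox2* do not count as separate cases.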

How the results depend on the processing

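Leaving out a replicate was not possible with 1 library per condition, and no paired analysis was possible because each condition has a single library. From GV to MII the median change of the 6 members, −0.03, went to 0.0355 and 0.0755 with pseudocounts of 0.1 and 0.01, to 0.0402, 0.00144 and 0.122 with equal FPKM sums, upper quartiles and *Gapdh*, to 0.0746 with abundant members only and to 0.0276 with *Obox8* added. In TubA-10 against GV the same 3 scalings put it at 0.0251, 0.00221 and 0.0975. The change of the sum went to −0.124 from GV to MII with the median change set to 0, and to 0.0938 in TubA-10 against GV with equal *Gapdh*.

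At 1.5-fold, 2 members were past the threshold in TubA-20 against GV and 2 against TubA-10, *Obox5* and *Obox7* in both cases. The share of background genes past 1.5-fold was not counted. In TubA-20 against GV, 23.3% of background genes had a higher change than *Obox5* and 31.6% a higher change than *Obox7*. Against TubA-10 these shares were 4.74% and 10.3%. Smaller pseudocounts brought *Obox3* or *Obox6* past 2-fold. With 0.1 and with 0.01, 1 member was lower from GV to MII and 1 higher from MII to TubA-10. Lower in TubA-20 were 1 member with 0.1 and 2 with 0.01 against both GV and TubA-10, and 1 with 0.01 against MII. Under other pseudocounts, scalings or joining, 161 changes of abundant members kept direction and side of 2-fold, and the other 7 changed sign, all against GV. Requiring a mean of 5 FPKM took the background genes lower in TubA-10 than in MII from 24 to 11, and those higher in TubA-20 than in MII from 62 to 26. The scaling by *Gapdh* moved the median of the background by up to 0.23.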
